A study of Mus musculus with 6 samples.

Results

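Aqp4 encodes aquaporin-4, a membrane channel that lets water follow an osmotic gradient into or out of a cell. It is best known from the end-feet of astrocytes in the brain, and it is also found in the sarcolemma of fast skeletal muscle fibres, where the dystrophin complex holds it in place. In the heart, where swelling of myocytes and tissue oedema depend on water movement, Aqp4 transcripts have been found beside those of other aquaporins. The gene was taken from the deposited table by its symbol, and is 1 of 617 genes listed there. It was selected on its difference between the groups in these libraries and on its spread within them, so its levels are a description and no p-value is given for them.

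The right ventricle (RV) of wild-type C57/BL6J mice was sequenced in 6 libraries, 3 per group. Pups underwent pulmonary artery banding (PAB), which ties a narrowing around the vessel that leaves the RV, or a sham operation without the band, both on postnatal day 1, and tissue was taken on postnatal day 7. The labels give the organism as mouse and all gene identifiers in the table are mouse Ensembl identifiers, although the labels' tissue protocol speaks of a rat. The methods state that neonates of either sex were used and do not state whether a library is 1 animal, so the spread between libraries may be partly technical. Values are reads per gene divided by 1 size factor per library (the relative depth of that library), here called normalized reads. The size factors lay within 1.14-fold of each other, and total depth is unknown because the table holds a selection of genes. The table lists only genes that the authors' own comparison put 1 or more apart on the log2 scale, so what other genes did cannot be seen in it.

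Aqp4 was far lower after PAB. The sham libraries held 609.1, 610.7 and 621.9 normalized reads in replicates 1, 2 and 3, and the PAB libraries held 71.4, 62.5 and 97.4. All sham values thus lay within 12.8 normalized reads of each other, and the lowest of them was still 6.26-fold above the highest PAB value. The mean was 613.9 ± 7.00 (SD, n = 3) in sham and 77.1 ± 18.1 (SD, n = 3) in PAB, so that PAB retained 12.6% of the sham mean, a 7.97-fold difference. On the log2(value + 1) scale the fitted difference, called log2 fold change below, was -3.00 (standard error 0.25, limma fit over all 617 genes). Against their sham mean, PAB replicates 1, 2 and 3 stood at 11.6%, 10.2% and 15.9%. In a bulk sample such as this, fewer cells that express Aqp4 and less Aqp4 RNA per cell cannot be told apart.

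**Figure D1:**
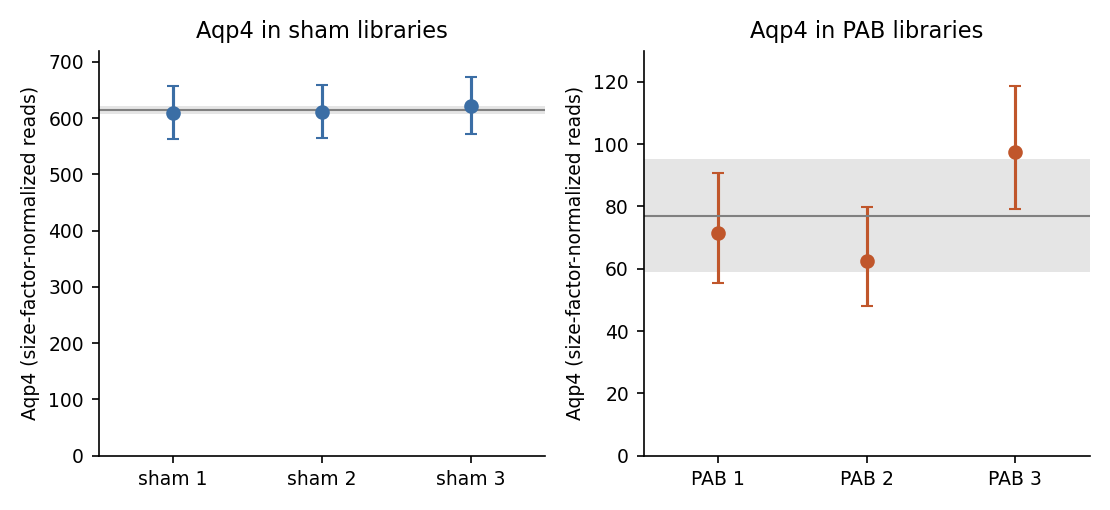
Aqp4 in each library, in size-factor-normalized reads, with sham on the left and PAB on the right; the vertical axes differ and both start at 0. Points are libraries, bars are exact 95% Poisson intervals for the reads behind each point (counting error only), the line is the group mean and the grey band is ± 1 SD (n = 3); the sham points lie between 609.1 and 621.9 and the PAB points between 62.5 and 97.4.

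The numbers of reads were estimated from the step of which the values in a library are whole multiples, and too few low values are listed for them to be treated as counts in a test. The intervals and counting levels given here carry that limit. Estimated this way, Aqp4 had 644, 653 and 593 reads in sham replicates 1 to 3, or 1890 in all, and 67, 63 and 98 in the PAB replicates, or 228 in all. For counting error alone, the exact 95% Poisson interval was 572.9 to 674.0 normalized reads in sham replicate 3 and 79.0 to 118.6 in PAB replicate 3. The intervals of the sham libraries overlapped each other almost fully and none reached those of the PAB libraries. Within PAB, the interval of replicate 2, from 48.0 to 79.9, met that of replicate 3 only at its upper end.

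According to the deposited table, Aqp4 (ENSMUSG00000024411) lies on the minus strand of chromosome 18 from 15389394 to 15403684, and the length used for it is 5082 bases. The labels give the build as mm10 (GRCm38), and 597 of 615 listed genes found by Ensembl ID in GENCODE M21 of that build have the same coordinates there. Aqp4 is among those that do not: GENCODE M21 places it from 15389496 to 15410982 and gives it 11 transcripts. The main coding transcript, Aqp4-201, has 5 exons and 5054 exonic bases, of which 969 are coding. Its last exon holds 3958 untranslated bases, 78.3% of the transcript, so most positions from which a read could be counted are in the 3′ UTR. Another 671 exonic bases, with whole exons of 8 of the 11 transcripts, lie upstream of the gene as deposited, and reads from there would not enter the values given here. A gene on the opposite strand, AC133525.2, spans 7896 bases of Aqp4 in GENCODE M21 but shares 0 exonic bases with it. No stretch of at least 100 bases at 95% identity was found between an Aqp4 transcript and the transcripts of any other gene, the remaining aquaporins included.

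Among the 327 listed genes that were lower in PAB, Aqp4 ranked 18 by log2 fold change. The rank depends on the pseudocount, being 28 with 0.1 and 9 with 5, since decreases of low genes shrink as it grows. Aqp4 differed from most of the other large decreases in its level. The 18 genes that fell at least as far, Aqp4 included, had a median sham mean of 89.6 normalized reads, and only Clec3b, which encodes the plasma protein tetranectin, was higher than Aqp4 in sham, with a mean of 1114.4. Per kilobase of the deposited gene length, the mean level of Aqp4 was 120.8 normalized reads in sham, which ranked 152 from the top of 616 genes with a length. In PAB it was 15.2, which ranked 400. The medians of all these genes were 31.6 and 30.8 normalized reads per kilobase, so Aqp4 went from above the middle of the table to below it. As background, limma called 100% of the listed genes at an unadjusted p-value under 0.05, and 52.5% of them had every PAB value below every sham value, as Aqp4 had. The listed genes were chosen on the same libraries, so such shares are no independent evidence.

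Aqp4 was then set beside genes of similar abundance, defined as those whose sham mean was within 1.5-fold of its own (409.3 to 920.8 normalized reads). This gave 66 genes with Aqp4 included, 42 lower and 24 higher in PAB. Aqp4 had the largest decrease of the 42. Next came Mylk4, which encodes a kinase of the myosin light chain kinase family, with a log2 fold change of -2.43, and Lrrc4b, which encodes a synaptic adhesion protein, with -2.31. The median of the other decreases in this range was -1.16. The 5 genes closest to Aqp4 in sham mean were Cystm1, Igfbp3, Ttll1, Ace and Podxl2, at 601.3 to 625.0 normalized reads. Of these, Igfbp3 (a binding protein of insulin-like growth factors) and Ace (the angiotensin-converting enzyme) rose, with log2 fold changes of 2.30 and 1.71, and Cystm1 rose with 1.04. Ttll1, which adds glutamate chains to tubulin, and Podxl2, a sialomucin of the podocalyxin family, fell with -1.04 and -1.02.

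**Figure D2:**
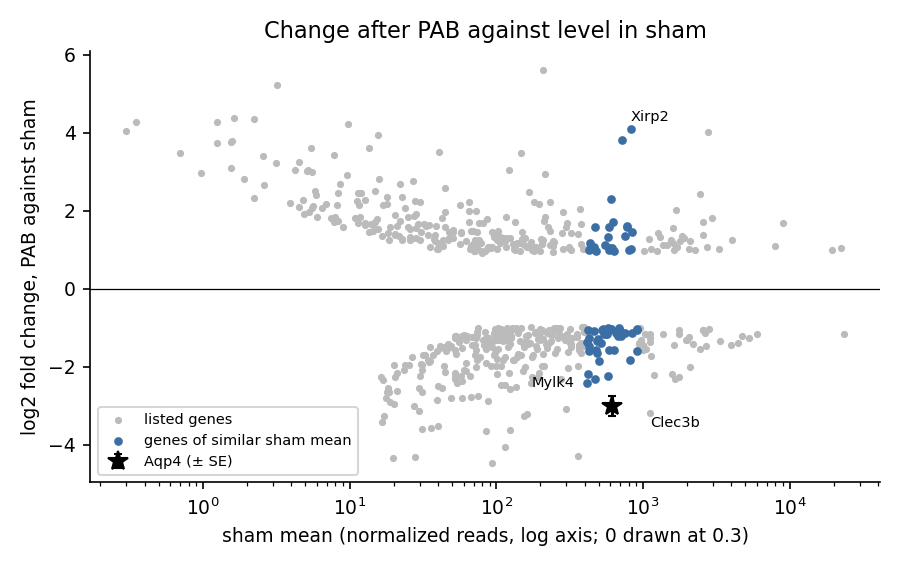
Log2 fold change of PAB against sham (limma, log2(value + 1)) on the vertical axis against the sham mean in normalized reads on a log axis, for all 617 listed genes (grey) and the 66 genes of similar sham mean (blue); the star is Aqp4 with its standard error. Aqp4 at -3.00 is the lowest of the blue points, and Clec3b is the gene to its right with a larger decrease; the empty band around 0 comes from the authors' listing limit.

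The spread of Aqp4 within the sham group was narrow for a gene of its level. Its coefficient of variation (CV, the SD as a percentage of the mean) over the 3 sham libraries was 1.14%, the lowest of the 66 genes. The other 65 had a median of 10.02%, 8.79 times that of Aqp4, and quartiles of 6.35% and 15.6%. Rasl11b, which encodes a small Ras-like GTPase, was next with 1.42%. At the far end were Adra1b, the alpha-1B adrenergic receptor, with 35.05% and Cadm4, a cell adhesion molecule, with 33.1%. In the whole table Aqp4 ranked 5 from the lowest of 616 genes with a CV, behind Tent5a, Dio2, Rpp25 and Mif, whose CVs ran from 0.54% to 0.80%. These 4 were named because they were few, after their values were seen.

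The sham CV was below what the counting of reads alone would give. At the number of reads that Aqp4 had in sham, counting error corresponds to a CV of 3.98%, and the measured CV was 0.286 times that value. A CV under the counting level was found for 8 of the 66 genes of similar level (12.1%) and for 117 of all 617 genes (19.0%), so Aqp4 was not alone in this. The closeness of the sham values also rests on the scaling of the libraries. The unscaled reads of Aqp4, 644, 653 and 593, had a CV of 5.14%, with rank 14 of 66. Scaling each library by its median ratio to the gene means of the table gave a CV of 8.41%, with rank 17 of 66. Neither alternative is a full depth correction. Unscaled reads leave depth differences in, and the median ratio rests on listed genes only, all chosen as different between the groups. Leaving out sham replicate 1 or 2 moved the rank to 9 of 62 and 5 of 67, and without replicate 3 the CV was 0.186%, with rank 1 of 66. The lowest rank in sham therefore holds for the authors' size factors, with all 3 libraries or without replicate 3, while the log2 fold change under median-ratio scaling was still -2.41 (standard error 0.24).

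**Figure D3:**
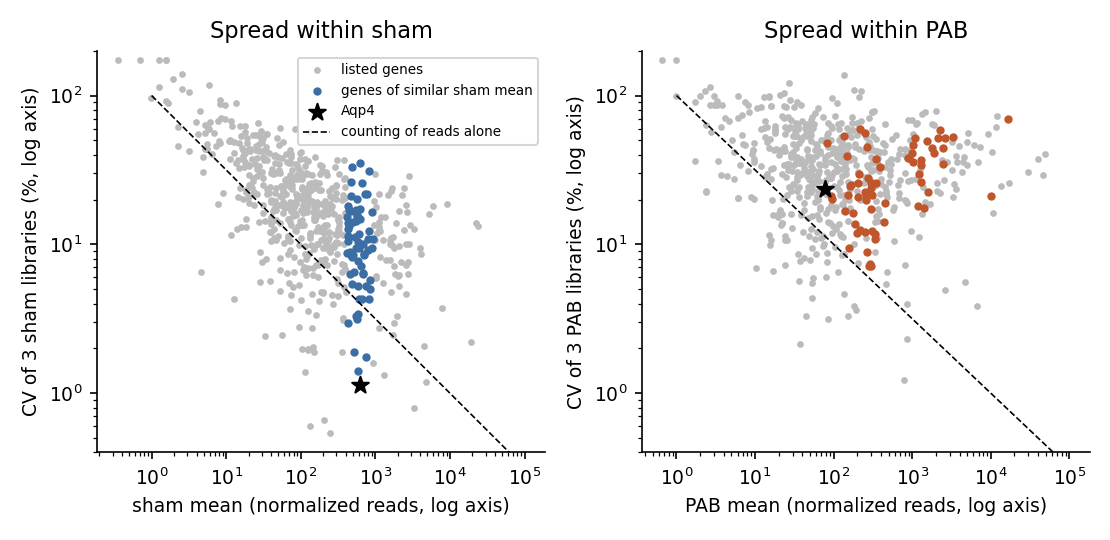
CV over 3 libraries in percent against the group mean in normalized reads (both log axes), for sham on the left and PAB on the right. Grey points are listed genes, coloured points the 66 genes of similar sham mean, the star is Aqp4 and the dashed line is the CV that counting of reads alone gives; Aqp4 lies under the line in sham (1.14%) and above it in PAB (23.5%).

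In PAB the spread of Aqp4 was unremarkable for the same genes. Its CV was 23.5%, which ranked 30 of 66 beside a median of 25.7% for the other 65. The lowest values there were 7.12% for Mov10l1, an RNA helicase of the piRNA pathway, and 7.15% for Igfbp6. The highest were 69.7% for Xirp2, an actin-binding protein of striated muscle, and 59.4% for Vtn, which encodes vitronectin. Because Aqp4 had fewer reads in PAB, it was also set beside the 117 genes whose PAB mean was within 1.5-fold of its own, where it ranked 47 and the median of the others was 28.7%. Its CV in PAB was 2.05 times the counting level of 11.5%. A rank in the middle rests on all 3 PAB libraries: without replicate 1 it was 53 of 66, without replicate 2 it was 17 and without replicate 3 it was 14. The CV itself was 9.38% without replicate 3, and 15.4% with median-ratio scaling, where it ranked 19 of 66.

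The CV of Aqp4 in PAB was 20.6 times that in sham, beside a median of 2.43 for the other genes, and ranked 2 from the highest of 66. This ratio rests on the sham CV and on its scaling: it was 1.83 with median-ratio scaling (rank 37 of 66) and 4.91 for unscaled reads (rank 15 of 66). It was 127 without sham replicate 3 and 8.23 without PAB replicate 3, and its rank was 9 of 62 without sham replicate 1 and 8 of 67 without sham replicate 2. A higher CV in PAB than in sham was common, in 56 of the 66 genes and in 457 of all 617. The listed genes were chosen on the same libraries by the authors' comparison, so their spread need not be that of all expressed genes.

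The order of the PAB libraries for Aqp4, with replicate 3 the highest and replicate 2 the lowest, was shared by 61 of the 327 decreased genes (18.7%). Replicate 3 was the highest PAB library for 200 of them, Aqp4 included. The lowest was replicate 1 for 192 genes and replicate 2 for 91. For Aqp4, replicates 1 and 2 held 67 and 63 reads, a difference well within counting error, so which of them was lowest is not determined.

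Of 13 symbols of the aquaporin family, with the antisense transcript Aqp4os counted among them, 2 were listed, and they moved in opposite directions. Aqp8, a water channel known mainly from liver, pancreas and gut, held 12.3, 13.1 and 25.2 normalized reads in the sham libraries and 51.1, 77.4 and 104.3 in PAB. Its groups did not overlap, as for 97.1% of listed genes. The sham mean was 16.9 ± 7.21 and the PAB mean 77.6 ± 26.6 (SD, n = 3 each), and Aqp8 rose by 2.15 on the log2 scale (standard error 0.41). Aqp8 and Aqp4 therefore ended at nearly the same number of normalized reads in PAB, from a very different start. Per kilobase, which allows levels of both genes to be compared, the level of Aqp4 was 11.3-fold that of Aqp8 in sham (120.8 against 10.7 normalized reads per kilobase), and in PAB that of Aqp8 was 3.24-fold that of Aqp4 (49.1 against 15.2). Aqp1, the abundant water channel of vascular endothelium, is not in the table and was not analysed here.

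The dystrophin and dystroglycan complex anchors aquaporin-4 in muscle and glia through syntrophin. Of 24 symbols for this complex and its partners 1 was listed, Megf10, which encodes a receptor of muscle satellite cells and is no subunit of the complex. It had a log2 fold change of 1.08. Neither the syntrophins nor dystrophin itself was listed, so a change of the anchor under the listing limit is not covered.

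Of the genes for cell volume, osmolytes and potassium buffering, 4 listed members are given here, and since a further member is not reported, no count by direction and no median is given for this list. Kcnj3 and Kcnj5 encode the subunits of the atrial potassium channel that acetylcholine opens through G proteins. Kcnj3 fell from 205.2, 174.9 and 208.7 normalized reads in the sham libraries to 32.0, 36.7 and 68.5 in the banded ones (log2 fold change -2.15), and like Aqp4 was highest in PAB replicate 3. Kcnj5 fell with -1.22, but was lowest in PAB replicate 3, at 235.4 normalized reads beside 365.3 and 327.3 in replicates 1 and 2. Slc6a6, the transporter of the osmolyte taurine, rose with 1.21. Car9, a carbonic anhydrase of the cell surface that hypoxia induces, rose with 3.42, from a low level of 2.81 to 13.2 normalized reads in the sham libraries.

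Of 18 symbols for hormones and receptors that govern body water and salt, 3 were listed. Nr3c2, the mineralocorticoid receptor through which aldosterone acts, held 143.8, 138.4 and 136.3 normalized reads in sham and 46.9, 38.7 and 37.7 in PAB, without overlap. Its log2 fold change was -1.75 (standard error 0.27), and its CV in sham was 2.74%. Nppa and Nppb, the natriuretic peptides, rose with log2 fold changes of 5.60 and 2.43.

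**Figure D4:**
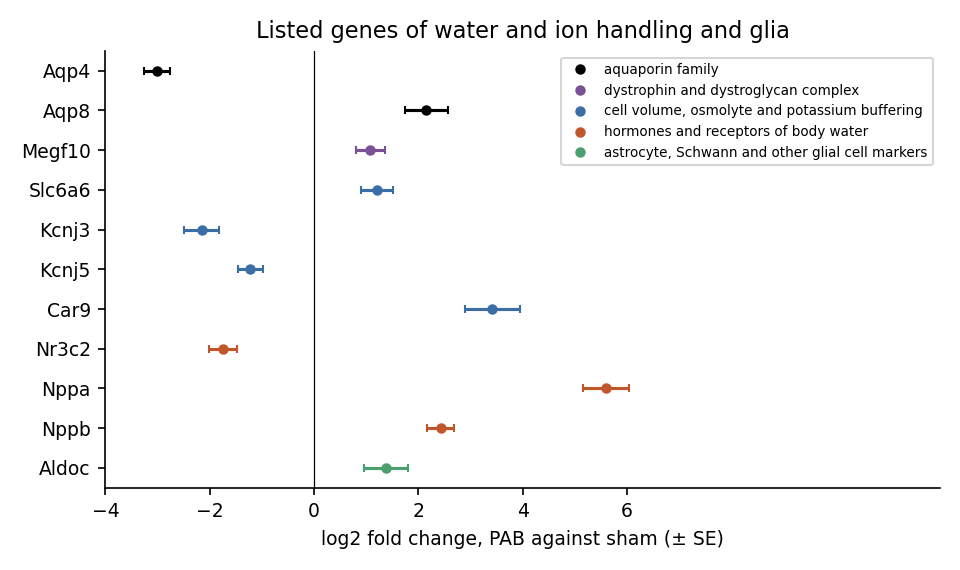
Log2 fold change of PAB against sham (limma, log2(value + 1), bars ± standard error) for 11 listed members of 4 lists on water and ion handling and of the glial marker list, coloured by list. Aqp4 at -3.00 and Kcnj3 at -2.15 are the lowest of the genes drawn, and Aqp8 at 2.15 lies on the other side of 0.

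Aquaporin-4 is also a marker of glia and of fast skeletal muscle, so markers of the cells that an RV sample could hold were examined. Of 16 glial markers 1 was listed, Aldoc (aldolase C), at 11.5 to 29.3 normalized reads in sham and 39.7 to 66.0 in PAB, which is opposite to Aqp4. Of 20 markers of fast skeletal muscle 2 were listed, the fast troponin gene Tnni2 and the light chain gene Myl1. Both were lower in PAB, as were 53.0% of all listed genes, so that a pair of genes says little about the list. Their sum went from 314.0 to 406.8 normalized reads in the sham libraries to 103.1 to 203.7 in the PAB libraries. Of 18 cardiomyocyte markers 2 were listed, Pln and Tbx5, with a sum of 21537 to 27300 in sham and 9138 to 12508 in PAB. Nearly all of this sum is Pln, phospholamban, which restrains the calcium pump, so it is the level of 1 gene rather than of the cell type. Of 11 atrial markers 2 were listed, Stard10 and Cacna1g, whose sum fell from 1276.3 to 1517.9 in sham to 453.2 to 456.0 in PAB. This pair too says little about its list. Nppa, which encodes atrial natriuretic peptide and was not in that list, rose with a log2 fold change of 5.60. No listed member of the lists was at 0 in any library. The part of these cell types in the lower level of Aqp4 was not tested.

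Of the other lists, 2 of 12 endothelial markers (Vwf and Flt1), 2 of 11 smooth muscle and pericyte markers (Cnn1 and Des) and 2 of 12 lung epithelial markers (Krt8 and Krt18) were listed, and all 6 genes were higher in PAB, as were 47.0% of all listed genes. Their sums were 2828 to 3307, 19042 to 19885 and 309.5 to 384.9 normalized reads in sham, and 4335 to 9153, 27519 to 57117 and 1057 to 1538 in PAB. The lung sum is that of 2 keratins, and no surfactant gene of that list was listed, so it is no level of lung tissue. Nearly all of the smooth muscle sum is Des, which encodes desmin and is abundant in cardiomyocytes too, so it is no level of smooth muscle, and listed genes of cardiomyocytes thus moved in both directions. The fibroblast marker Dpt, 1 of 12, went from 4649 to 4759 in sham to 1487 to 2511 in PAB, and the complement gene C1qa, 1 of 16 leukocyte markers, from 642.9 to 700.4 to 270.7 to 346.7. None of 9 red blood cell markers was listed. Most defining markers of each type, those of ventricular muscle included, are not in the table, so the labelled tissue could be checked only in part.

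The genes whose pattern over the 6 libraries lay closest to that of Aqp4 were Ubxn10, Art1, Gm43136, Xpnpep2 and 1500035N22Rik. Closeness was the root mean square difference of log2(value + 1) after the mean of each gene had been taken off, and it ran from 0.23 for Ubxn10 to 0.33 for 1500035N22Rik on the log2 scale. Ubxn10, which encodes a UBX-domain protein of cilia, held 63.4, 72.9 and 88.1 normalized reads in sham and 9.59, 9.92 and 10.9 in PAB. Art1, a muscle enzyme that attaches ADP-ribose to proteins at the cell surface, held 281.8, 375.9 and 231.8 in sham and 24.5, 33.7 and 43.7 in PAB. Xpnpep2, a membrane-bound aminopeptidase, had a mean of 42.5 ± 12.6 (SD, n = 3) in sham and 6.41 ± 2.20 (SD, n = 3) in PAB. All of these were less abundant than Aqp4 and less even in sham, with CVs of 13.2% to 29.6%. Their lower numbers of reads account for part of this. Counting alone gives 5.71% for Art1 and up to 22.9% for 1500035N22Rik, whose measured 13.2% lies below that level. The antisense gene Gm43136 and the long non-coding gene 1500035N22Rik rest on at most 2 and 4 reads in a PAB library, and since the sources used here do not say whether counting used the strand, reads of an antisense gene cannot be told from those of its partner. With the likeness measured by correlation, which ignores the size of the change, 0 of these 5 genes were among the closest 5, so the likeness depends on how it is measured. The closest 5 by correlation were nearly as even in sham as Aqp4, with CVs of 1.60% to 3.66%.

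**Figure D5:**
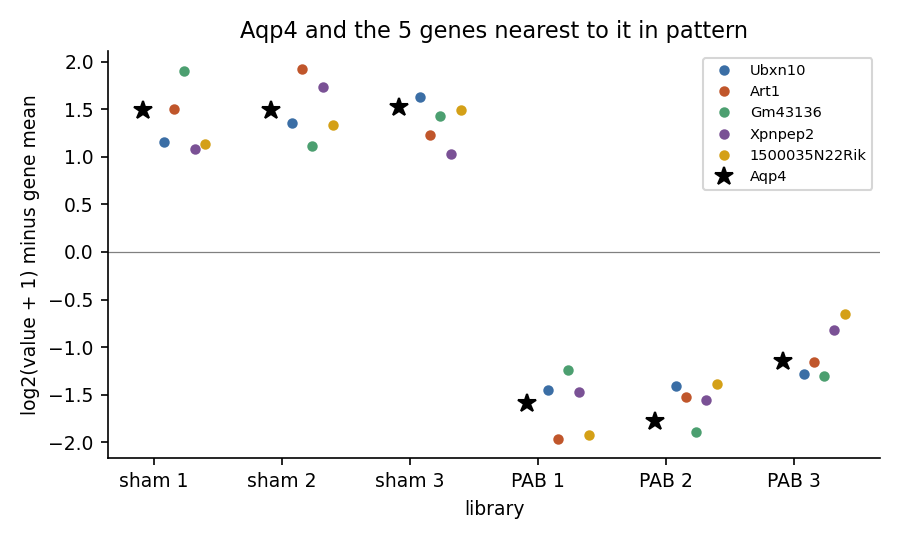
Log2(value + 1) of Aqp4 (stars) and of the 5 genes closest to it (circles), each after its own mean over the 6 libraries is taken off, by library. All 6 genes are above 0 in each sham library and below 0 in each PAB library, and the stars at sham 1 to 3 are nearly level.

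Chromosome 18 holds 15 listed genes, 6 lower and 9 higher in PAB, beside 53.0% lower and 47.0% higher in the whole table. Aqp4 is the first of them in order of position, and the next is Rnf125, which encodes a ubiquitin ligase, 5.54 Mb away at 20944625 to 20983848. Rnf125 was higher in PAB. The second largest decrease on the chromosome was that of Gm37015, with a log2 fold change of -2.27.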

How the data were processed

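RNA of RV tissue was sequenced by the authors in 3 sham and 3 PAB libraries. The submitters' processing notes name HISAT2 2.0.5, featureCounts 1.5.0-p3, StringTie 1.3.3b, GATK 3.7 and mm10, and the methods name DESeq2 for the comparison. The deposited values, called FPKM by the authors, are a signal of another kind: dividing the values of a library by a single step gave whole numbers (tolerance 0.1) for 100% of them, whatever the gene length, as for reads over a size factor. The deposited log2 fold change, p-value and adjusted p-value columns hold the authors' own comparison and were not used, beyond checking the listing limit of 1. The design had assumed a normalized value and was kept.

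A limma 3.58.1 model (R 4.3.3, eBayes with a mean-variance trend, two-sided) was fitted to log2(value + 1), which understates changes of low genes; a minimum mean of 0.1 removed 0 genes. A gene was said to rise or fall where the unadjusted p-value was under 0.05, the study's threshold, and all 617 genes were under 0.05 after Benjamini-Hochberg adjustment as well. Because the listed genes were selected on the same libraries, such a call is no independent evidence. Spread was the CV over 3 libraries, and intervals are exact Poisson. The members and lists were chosen with earlier results of these data known. Named genes are Aqp4, the 5 nearest in sham mean, the 5 closest in pattern, the 2 lowest and 2 highest CVs of each group among genes of similar level, listed members of 4 lists on water and ion handling (1 gene of the cell volume list is not reported here) and of the glial list, up to 4 members of each marker list, and the nearest listed gene on the chromosome; Mylk4, Lrrc4b, Clec3b and Gm37015 were named after their values were seen. The fit was also run on simulated data in which only part of the genes changed. The listed genes were all selected as changed, so that run does not vouch for the calls here. Shared sequence was searched with blastn 2.17.0 in GENCODE M21 transcripts. Other steps used Python 3.11.15, pandas 2.3.3, numpy 2.4.6, scipy 1.17.1 and matplotlib 3.10.9.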

Additional observations from a re-analysis of the deposited data

How the results depend on the processing

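The log2 fold change of Aqp4 kept its direction under each alternative tried. It moved by more than the spread between replicates only with median-ratio scaling over the listed genes, to -2.41, since that scaling shifts PAB against sham by 0.594. All listed genes were chosen as different between the groups, so that scaling has no set of unchanged genes to rest on. Leaving out each library gave -3.18 to -2.87, and pseudocounts of 0.1 and 5 gave -3.02 and -2.94. The sham CV of 1.14% went to 8.41% with median-ratio scaling and to 5.14% for unscaled reads, an alternative chosen after seeing the data, and to between 0.186% and 1.48% with each sham library left out. Its rank of 1 of 66 went to 17 with median-ratio scaling, to 14 for unscaled reads, and to between 1 and 9 with a library left out. It stayed 1 in a narrower range (36 genes) and one of 2-fold (115 genes) and for the SD of log2(value + 1). The PAB CV was 9.38% to 30.9% with each PAB library left out, and its rank of 30 went to 19 with median-ratio scaling and to between 14 and 53 with a library left out. The ratio of PAB CV to sham CV, 20.6 with rank 2 from the highest, was 1.83 (rank 37) with median-ratio scaling and 4.91 (rank 15) for unscaled reads, and 8.23 to 127 (ranks 1 to 9) with a library left out; these settings were added after seeing the data. The rank of 18 among decreases was 28 and 9 with pseudocounts of 0.1 and 5, and 16 to 25 with a library left out. Of the 5 genes closest in pattern, 3 were shared with a pseudocount of 0.1 and 0 with Pearson correlation.

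The number of genes called was 617, 608 with a minimum mean of 10, 506 with median-ratio scaling (290 higher and 216 lower, in place of 290 and 327), 613 without a trend, and 591 to 614 with a library left out. Replicates are numbered 1 to 3 in both groups. The correlations of their deviations were -0.059, -0.055 and -0.199, so no pairing by number was seen. With 3 libraries per group and selected genes, this cannot exclude a pairing in the design. With the replicate number as a block, 616 genes were called and the log2 fold change of Aqp4 was -3.00 (standard error 0.28). The planned edgeR test on recovered reads was not run, since the table holds too few low values for such recovery to be accepted as counts. Precision is limited by 3 libraries per group and, in PAB, by 63 to 98 reads of Aqp4 per library.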
